A study of Cyanidioschyzon merolae strain 10D with 12 samples.

Results

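The redox and thiol defence genes of the red alga Cyanidioschyzon merolae 10D were described across a shift in CO2. They were taken as every gene whose functional category in the deposited table begins with "redox", without genes of the plastid genome and without catalase. This gave 54 members out of 4970 genes. They comprise 20 genes of ascorbate and glutathione, 13 of the thioredoxin class, 7 glutaredoxins, 6 peroxiredoxins, 3 superoxide dismutases, 2 heme proteins and 3 further reductases. Of the 57 genes in that category, the catalase CMI050C and the plastid-encoded CMV226C and CMV012C were left out by that definition.

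Wild-type cells were grown in batch at 30 °C and constant light, with 5% CO2 in the aeration. The groups were HC 0 h (5% CO2, sampled just ahead of the shift), LC 3 h and LC 24 h (3 h and 24 h at 0.04% CO2) and HC 24 h recovery, called recovery here (24 h after the return to 5% CO2), with 3 biological replicates each. Whether libraries with the same replicate number come from 1 culture sampled over time is not stated in the labels. Every group was the same strain, and only the CO2 supply was changed. No culture held at 5% CO2 over the same hours is among the 12 libraries, so the effect of CO2 and of time in culture cannot be told apart.

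Thioredoxins are small proteins that reduce disulfide bonds in other proteins. In plastids of land plants they receive electrons from photosynthetic ferredoxin through ferredoxin-thioredoxin reductase, and elsewhere from NADPH. Glutaredoxins do related work with electrons from glutathione. Superoxide dismutase turns superoxide into hydrogen peroxide, which peroxiredoxins remove with thiols and ascorbate peroxidase removes with ascorbate. Ascorbate is then restored by monodehydroascorbate and dehydroascorbate reductases, and glutathione by glutathione reductase. In photosynthetic cells these enzymes are known for handling reactive oxygen made by electron transport in the light. Names given below are those of the best Arabidopsis match in the deposited table, a similarity and not a measured function. For 5 members (CMO099C, CMI284C, CMP058C, CMT084C and CMR319C) that match had an E-value above 1e-05.

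Total estimated counts ranged between 9671514 and 28346661 per library. The large subunit of Rubisco, CMV013C, was present in every library, with 1642 to 5938 counts. Replicate 1 stood apart from replicates 2 and 3 in every group. Its correlation with the others was lowest at LC 24 h, at 0.962 and 0.953, against 0.996 between replicates 2 and 3. Genes with no length in the table took 2.59%, 1.37% and 6.46% of counts in the LC 3 h libraries, against 0.161% to 0.827% in all other libraries, and the part of this difference in the results was not tested. In bulk RNA, a smaller share of a transcript per cell and fewer cells holding it cannot be told apart. All 54 members were measured well enough to be tested, and the lowest count of any member in any library was 60.

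The members spanned a wide range of levels. Mean TPM over the 12 libraries, a level per gene length, was highest for the ascorbate peroxidase CMM158C at 4915, above 99.9% of all genes. The superoxide dismutase CMN023C had 3089 TPM, the peroxiredoxin CMS311C 1773 TPM and the glutaredoxin CMM250C 1381 TPM. The lowest was the disulfide isomerase-like CMK015C at 4.30 TPM. Summed over all members, the level was 22153 ± 162 TPM at HC 0 h, 30065 ± 976 TPM at LC 3 h, 22000 ± 1413 TPM at LC 24 h and 22588 ± 782 TPM in recovery (SD, n = 3 each). Every LC 3 h library lay above every library of the other groups. Within the sum, ascorbate and glutathione genes had 12243 ± 774 TPM at LC 3 h and 7444 ± 211 TPM at HC 0 h. Peroxiredoxins had 5165 ± 277 TPM at LC 3 h and 3320 ± 203 TPM at HC 0 h. Single genes made up most of these differences. CMM158C alone averaged 8313 ± 744 TPM at LC 3 h and 3846 ± 144 TPM at HC 0 h, and the other 19 genes of its class together had 3930 ± 31.5 TPM and 3597 ± 94.8 TPM in those groups. CMS311C averaged 3239 ± 378 TPM at LC 3 h and 683 ± 78.7 TPM at HC 0 h, while the other 5 peroxiredoxins together were lower in every LC 3 h library (1926 ± 162 TPM) than in any HC 0 h library (2637 ± 125 TPM). Without CMM158C, CMS311C and CMN023C, left out after their values were seen, the remaining 51 members summed to 14336 ± 977 TPM at LC 3 h and 15140 ± 285 TPM at HC 0 h, with overlapping libraries. Thioredoxin-class genes had 4189 ± 236 TPM at LC 3 h and 3908 ± 171 TPM at HC 0 h, with overlapping libraries. The deposited TPM values are not scaled by TMM, whose factors were 0.846 to 0.946 at LC 3 h and 1.03 to 1.05 at HC 0 h. The direction of a small difference between these groups can depend on that scaling. CMM250C averaged 1235.5 TPM at LC 3 h and 1280.9 TPM at HC 0 h, but 641 and 601 CPM after TMM scaling. Sums on the TMM scale were not computed, and no test was run on the sums.

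**Figure D1:**
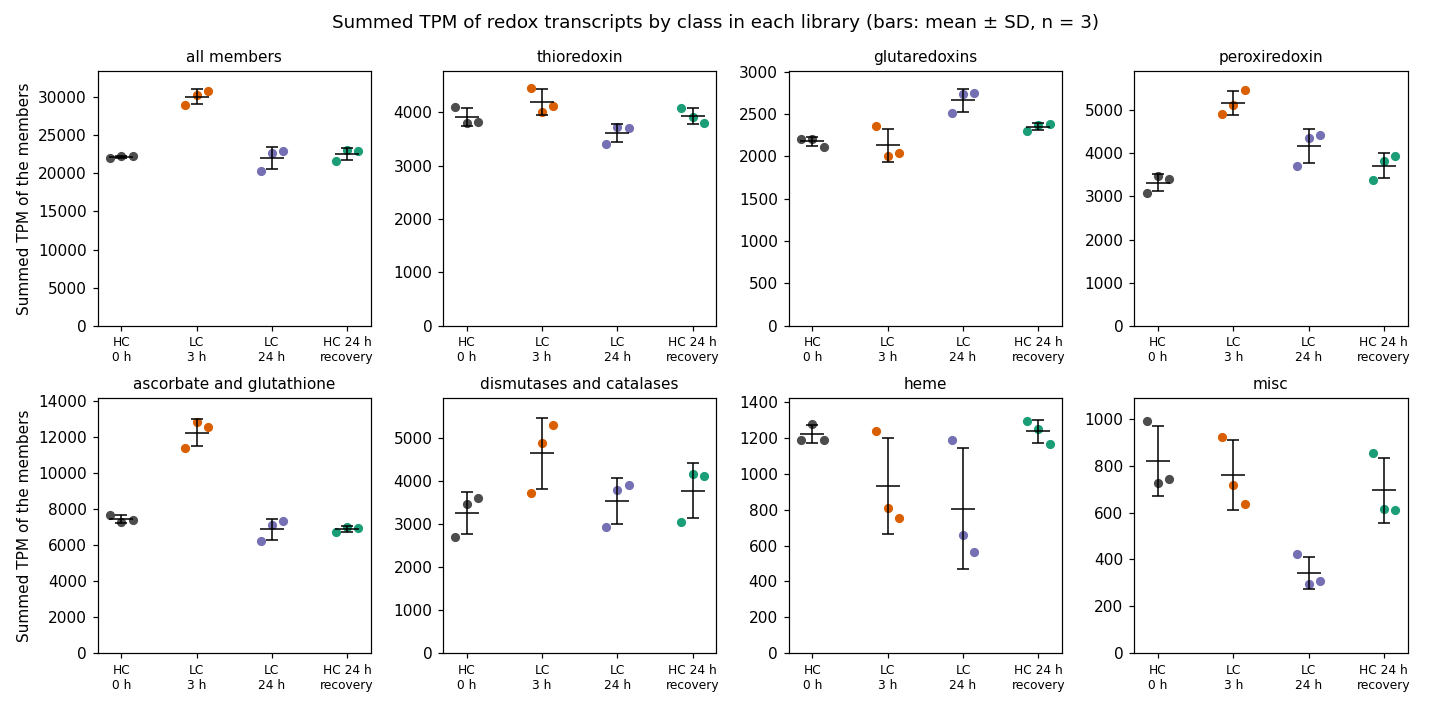
Summed TPM of the members of each class (y axis, linear from 0) in each library of the 4 groups in time order (x axis), as points, with the mean and SD of 3 libraries as bars. The sum over all members stood at 30065 ± 976 TPM at LC 3 h and between 22000 and 22588 TPM as group means elsewhere, but the 51 members other than CMM158C, CMS311C and CMN023C summed to 14336 TPM at LC 3 h and 15140 TPM at HC 0 h. TPM is not scaled by TMM, and the direction of small differences such as this last one can depend on that scaling.

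At LC 3 h against HC 0 h, 16 members rose and 8 fell by edgeR's quasi-likelihood test at an adjusted p under 0.05 (Benjamini-Hochberg over all 4865 tested genes). That is 44.4% of the members, beside 41.4 percent of all tested genes called in either direction. Higher calls took 29.6% of the members against 22.1 percent of all tested genes, and lower calls 14.8% against 19.3 percent. The median log2 change was -0.02 over the members and 0.02 over all tested genes. By at least 2-fold, 4 of the 54 members rose and none fell. Those 4 were a peroxiredoxin, an ascorbate peroxidase, a monodehydroascorbate reductase and a thioredoxin. Over all tested genes, 344 of 4865 were called at that size in either direction. Under upper-quartile scaling the split over all genes was 861 higher and 1321 lower, beside 1076 higher and 939 lower here, and 14 members were called lower.

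With the replicate number as a block, 13 members fell at LC 3 h, the added ones being CMC150C (adjusted p = 0.0355), CMN188C (0.0293), CMQ062C (0.0108), CMQ201C (0.0171) and CMT028C (0.0122). Leaving out LC 3 h replicate 1 also gave 13, with CMC150C (adjusted p = 0.033), CMN188C (0.00124), CMQ062C (2.6e-04), CMQ201C (0.00737) and CMS271C (8.3e-04) as the added ones. With all libraries and no block those members missed the threshold, and they are not counted as falls below.

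At LC 24 h against HC 0 h, 15 members rose and 23 fell, 70.4% of the members beside 63 percent of all tested genes called. Lower calls took 42.6% of the members against 30.3 percent of all tested genes, and higher calls 27.8% against 32.7 percent. The members' median log2 change was -0.15, against 0.02 over all tested genes. By at least 2-fold, 1 member rose (CMS311C) and 7 fell, namely CMT084C, CMR158C, CMS308C, CMC043C, CMP058C, CMS286C and CMC180C. These are 8 of 54 members, beside 711 of 4865 tested genes called at that size in either direction. Of the 38 calls, 29 held under every alternative setting and left-out library.

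Set directly against LC 3 h, LC 24 h had 8 members higher and 25 lower, 61.1% of the members beside 53.2 percent of all tested genes. Higher calls took 14.8% of the members against 23.7 percent of all tested genes, and lower calls 46.3% against 29.5 percent, with a median log2 change of -0.27 over the members and -0.05 over all tested genes. Only 5 members were called higher without HC 0 h replicate 2, LC 3 h replicate 3, LC 24 h replicate 2 or recovery replicates 2 or 3, each left out alone, and 3 without LC 24 h replicate 3. Under upper-quartile scaling the split over all genes was 1422 higher and 1184 lower, beside 1152 higher and 1435 lower here. The lower calls of CMC150C, CMH255C, CMP058C, CMP154C, CMQ201C and CMS271C were lost under that scaling.

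**Figure D2:**
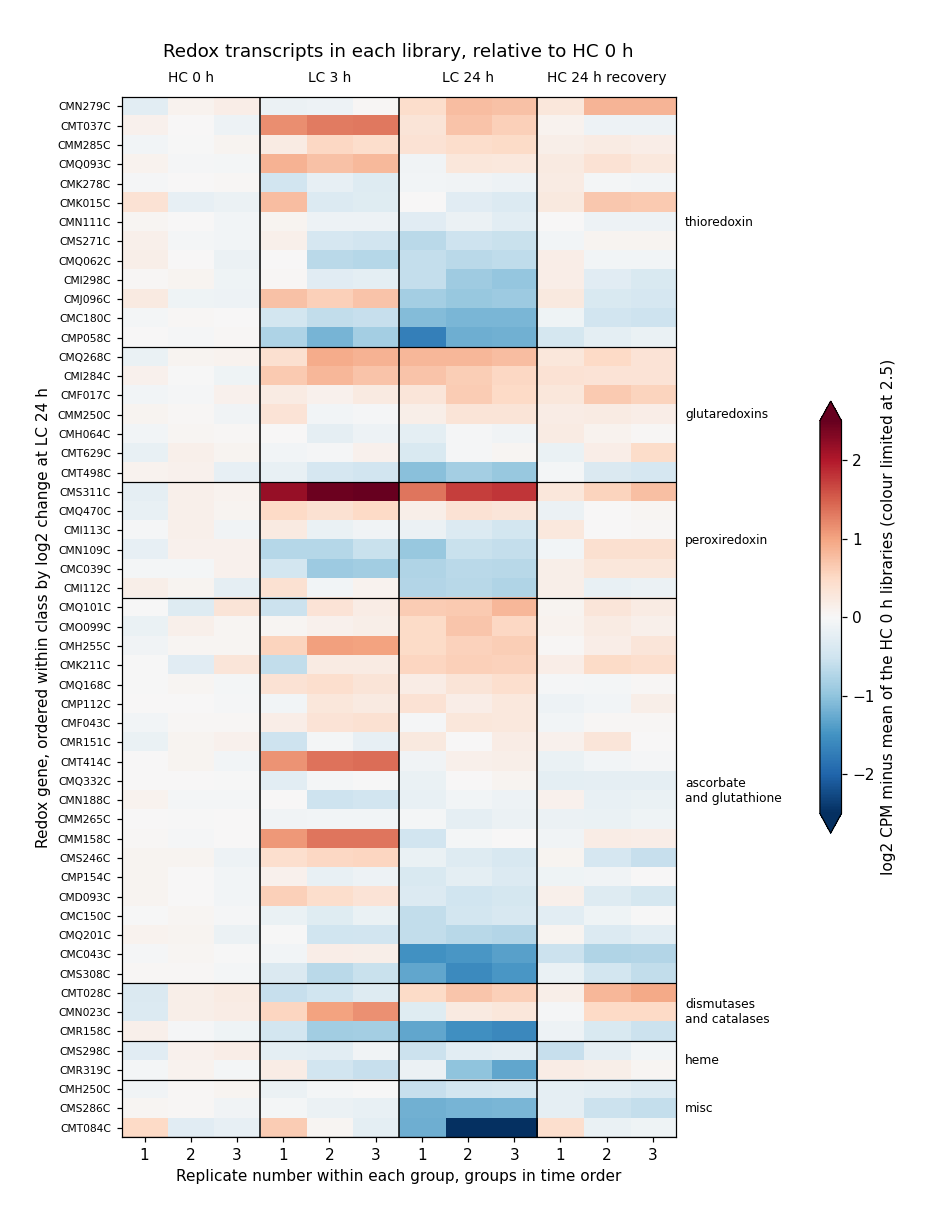
Level of each of the 54 members (rows, by class) in each of the 12 libraries (columns, groups in time order) as log2 CPM minus the mean of the HC 0 h libraries; red is higher and blue lower, with the colour limited at 2.5. Most rows are pale at LC 3 h apart from a few strong reds such as CMS311C, CMT414C, CMM158C and CMT037C, blue is widespread at LC 24 h, and recovery columns are near the HC 0 h colour.

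Among the enzymes that remove superoxide and peroxide, a peroxiredoxin had the largest rise of the set at LC 3 h and LC 24 h. CMS311C matches peroxiredoxin Q, a plastid thiol peroxidase of land plants. It had 297, 381 and 370 CPM at HC 0 h, 1574, 1889 and 2031 CPM at LC 3 h, 876, 1157 and 1196 CPM at LC 24 h and 425, 511 and 587 CPM in recovery. All libraries of the 4 groups were separate, in the order LC 3 h, LC 24 h, recovery and HC 0 h. It rose 5.24-fold at LC 3 h against HC 0 h (log2 2.39 ± 0.18 SE, adjusted p = 2.2e-06) and 3.08-fold at LC 24 h (log2 1.62 ± 0.17, adjusted p = 1.5e-05). In recovery it fell relative to LC 24 h (log2 -1.08 ± 0.17, adjusted p = 4.5e-04). Its recovery level against HC 0 h was log2 0.54 ± 0.17 with an adjusted p of 0.0551, which became 0.027 when recovery replicate 1 was left out, 0.0348 when the first LC 24 h library was left out and 0.032 when the first LC 3 h library was.

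A further 3 genes match the same Arabidopsis peroxiredoxin Q. Of these, CMQ470C was called in the same directions as CMS311C in the following comparisons, with smaller log2 values. CMQ470C rose by log2 0.45 ± 0.09 at LC 3 h (adjusted p = 0.00274) and 0.27 ± 0.09 at LC 24 h (adjusted p = 0.0257), and fell in recovery against LC 24 h (log2 -0.30 ± 0.09, adjusted p = 0.0196). The call at LC 24 h was lost when HC 0 h replicate 1 (0.0995) was left out, and with either replicate 2 (0.0941) or replicate 3 (0.0693) of LC 24 h left out. The recovery call was lost when recovery replicate 1 (0.0722) was left out, and with either replicate 2 (0.0778) or replicate 3 (0.058) of LC 24 h left out. CMI112C had 262, 249 and 203 CPM at HC 0 h, 307, 225 and 251 CPM at LC 3 h and 142, 147 and 141 CPM at LC 24 h. It overlapped HC 0 h at LC 3 h and fell below both at LC 24 h (log2 -0.73 ± 0.13 against HC 0 h, adjusted p = 6.4e-04). CMI113C lies next to it in the RefSeq gene table, and whether the neighbours share reads was not tested. Without HC 0 h replicates 1 or 2 or LC 24 h replicates 2 or 3, the fall of CMI113C at LC 24 h (log2 -0.31, adjusted p = 0.0463) had an adjusted p of 0.0791, 0.15, 0.11 and 0.161, and without HC 0 h replicate 3 or recovery replicate 3 of 0.0501 and 0.0506.

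Both remaining peroxiredoxins fell under low CO2 and stood higher after the return. CMC039C matches PER1, the single-cysteine peroxiredoxin of Arabidopsis. It had 198, 200 and 221 CPM at HC 0 h, 150, 110 and 113 CPM at LC 3 h, 122, 130 and 128 CPM at LC 24 h and 230, 249 and 252 CPM in recovery. The low-CO2 libraries were all below those at high CO2. It fell by log2 -0.73 ± 0.11 at LC 3 h (adjusted p = 3.2e-04) and by -0.71 ± 0.11 at LC 24 h (adjusted p = 2.0e-04), and rose by 0.95 ± 0.11 in recovery against LC 24 h (adjusted p = 5.5e-05). CMN109C, a type 2 peroxiredoxin, had 643, 804 and 798 CPM at HC 0 h, 454, 451 and 506 CPM at LC 3 h, 386, 504 and 495 CPM at LC 24 h and 713, 987 and 985 CPM in recovery. Replicate 1 was the lowest in each group but LC 3 h, and low and high CO2 still did not overlap. Its fall was log2 -0.67 ± 0.15 at LC 3 h (adjusted p = 0.00509) and -0.70 ± 0.15 at LC 24 h (adjusted p = 0.0024).

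The 3 superoxide dismutases all match the same Arabidopsis manganese enzyme, and each took its own course. CMN023C, the most abundant, had 1015, 1442 and 1481 CPM at HC 0 h, 1866, 2592 and 2860 CPM at LC 3 h, 1043, 1519 and 1576 CPM at LC 24 h and 1260, 1835 and 1819 CPM in recovery. It was higher in every LC 3 h library than in any HC 0 h or LC 24 h library. The rise at LC 3 h passed the test (log2 0.89 ± 0.23, adjusted p = 0.0104), and the level was lower at LC 24 h than at LC 3 h (log2 -0.82 ± 0.23, adjusted p = 0.013). CMR158C had 268, 240 and 227 CPM at HC 0 h, 179, 134 and 135 CPM at LC 3 h, 99.8, 84.2 and 80.2 CPM at LC 24 h and 222, 187 and 168 CPM in recovery. Its libraries at HC 0 h, LC 3 h and LC 24 h formed a falling series with no overlap. It fell at LC 3 h (log2 -0.71 ± 0.14, adjusted p = 0.00203) and further at LC 24 h (log2 -1.47 ± 0.14, adjusted p = 8.1e-06), and rose in recovery against LC 24 h (log2 1.13 ± 0.14, adjusted p = 1.1e-04).

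The third dismutase, CMT028C, was called higher at LC 24 h than at HC 0 h and LC 3 h. It had 221, 315 and 329 CPM at HC 0 h, 191, 202 and 226 CPM at LC 3 h, 394, 457 and 429 CPM at LC 24 h and 313, 505 and 548 CPM in recovery. All LC 24 h libraries exceeded all LC 3 h libraries (log2 1.05 ± 0.20, adjusted p = 0.00149). Recovery overlapped LC 24 h and had the higher mean, 456 ± 125 CPM against 427 ± 31.9 CPM (SD, n = 3 each). The recovery change of CMT028C from HC 0 h, log2 0.66, was not called with all libraries and no block. Its LC 3 h change from HC 0 h, log2 -0.48 ± 0.20, had an adjusted p of 0.0745, or 0.0122 with the replicate block, 0.0282 without HC 0 h replicate 1 and 0.0189 without recovery replicate 1. At LC 24 h against HC 0 h it rose by log2 0.57 ± 0.20 (adjusted p = 0.0285), and that call was lost without HC 0 h replicate 1 (0.108) and with either replicate 2 (0.0819) or replicate 3 (0.062) of LC 24 h left out.

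**Figure D3:**
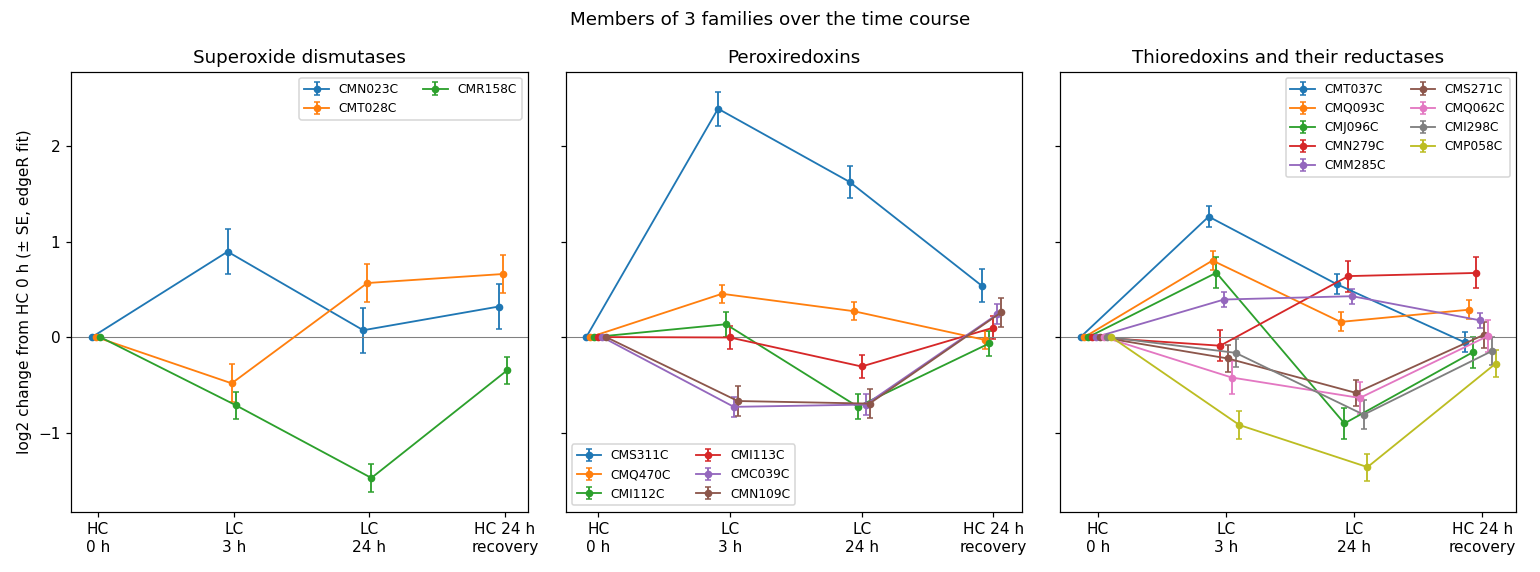
Log2 change from HC 0 h (y axis, with SE from the edgeR fit; HC 0 h is set to 0) over the 4 groups in time order (x axis) for the 3 superoxide dismutases, the 6 peroxiredoxins and the 9 thioredoxins and their reductases, 1 line per gene. In each panel lines run both above and below 0, with CMS311C at 2.39 and CMP058C at -0.92 at LC 3 h.

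In the ascorbate cycle, the peroxidase and the reductase that restores ascorbate rose together at LC 3 h and were back near the HC 0 h level at LC 24 h. The ascorbate peroxidase CMM158C, which matches the thylakoid enzyme of Arabidopsis, had 3451, 3318 and 3401 CPM at HC 0 h, 7193, 8598 and 8526 CPM at LC 3 h, 2424, 3279 and 3390 CPM at LC 24 h and 3176, 3837 and 3801 CPM in recovery. LC 3 h stood clear of every other group. It rose 2.39-fold at LC 3 h (log2 1.26 ± 0.16, adjusted p = 1.2e-04), and LC 24 h was lower than LC 3 h by log2 -1.42 ± 0.16 (adjusted p = 6.0e-05). The monodehydroascorbate reductase CMT414C had 516, 538 and 488 CPM at HC 0 h, 1119, 1324 and 1344 CPM at LC 3 h, 485, 558 and 567 CPM at LC 24 h and 459, 492 and 502 CPM in recovery. Again only LC 3 h stood apart. It rose 2.46-fold at LC 3 h (log2 1.30 ± 0.10, adjusted p = 3.7e-06) and was lower at LC 24 h than at LC 3 h (log2 -1.23 ± 0.10, adjusted p = 1.1e-05).

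Smaller log2 changes were measured for CMQ168C, CMO099C and CMC150C. CMQ168C, which matches a dehydroascorbate reductase, rose by log2 0.37 ± 0.07 at LC 3 h (adjusted p = 0.0012) and 0.31 ± 0.07 at LC 24 h (adjusted p = 0.00199). CMO099C, whose match to a further monodehydroascorbate reductase is weak (E-value 3e-04), had 91.7, 111 and 105 CPM at HC 0 h, 105, 111 and 114 CPM at LC 3 h, 142, 165 and 146 CPM at LC 24 h and 108, 119 and 112 CPM in recovery. Its LC 24 h libraries were above all others. It rose at LC 24 h (log2 0.56 ± 0.08, adjusted p = 1.9e-04) and fell in recovery against LC 24 h (log2 -0.42 ± 0.08, adjusted p = 0.00192). CMC150C, matching a cytosolic ascorbate peroxidase, fell by log2 -0.49 ± 0.08 at LC 24 h (adjusted p = 2.8e-04).

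Glutathione reductase was lowest at LC 24 h. CMC043C had 471, 498 and 481 CPM at HC 0 h, 460, 544 and 533 CPM at LC 3 h, 170, 177 and 189 CPM at LC 24 h and 334, 287 and 289 CPM in recovery. LC 24 h and recovery each lay below both earlier groups, and LC 3 h overlapped HC 0 h. It fell at LC 24 h against HC 0 h (log2 -1.44 ± 0.09, adjusted p = 5.9e-07) and against LC 3 h (log2 -1.52 ± 0.09, adjusted p = 2.0e-06). It rose by log2 0.76 ± 0.09 in recovery against LC 24 h (adjusted p = 6.95e-05) and was still lower than at HC 0 h (log2 -0.67 ± 0.09, adjusted p = 0.00275). The glutathione synthetase match CMF043C rose by log2 0.30 ± 0.09 at LC 3 h (adjusted p = 0.0228), a call lost without HC 0 h replicate 1 (0.0796) or LC 3 h replicates 2 (0.0545) or 3 (0.0655) and under upper-quartile scaling (0.0904).

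Genes that break down glutathione outside the cycle gave smaller changes than the glutathione reductase CMC043C. CMQ101C, a gamma-glutamyl transpeptidase match, had 51.2, 41.2 and 64.1 CPM at HC 0 h, 35.4, 65.4 and 58.6 CPM at LC 3 h, 79.4, 81.2 and 91.3 CPM at LC 24 h and 54.1, 63.0 and 59.2 CPM in recovery. LC 24 h was the highest group with no overlap, over wide spreads at HC 0 h and LC 3 h. It rose at LC 24 h by log2 0.69 ± 0.21 against HC 0 h (adjusted p = 0.0133, and 0.0575 without HC 0 h replicate 2) and by 0.66 ± 0.21 against LC 3 h (adjusted p = 0.0199, and 0.0613 without LC 24 h replicate 3). The second transpeptidase match, CMM265C, stayed within 91.8 to 108 CPM in all 12 libraries and passed no comparison.

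Ascorbate is made in land plants from GDP-mannose through L-galactose, and the members that match these steps were called in both directions. CMS308C matches GDP-mannose epimerase, the step that enters the pathway. It had 356, 354 and 337 CPM at HC 0 h, 270, 219 and 237 CPM at LC 3 h, 143, 115 and 126 CPM at LC 24 h and 309, 253 and 228 CPM in recovery. The first 3 groups descended with no overlap. It fell at LC 3 h (log2 -0.53 ± 0.12, adjusted p = 0.00478) and at LC 24 h (log2 -1.44 ± 0.12, adjusted p = 3.3e-06), and rose in recovery against LC 24 h (log2 1.04 ± 0.12, adjusted p = 6.6e-05).

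Further along that pathway, 2 genes match the L-galactose-1-phosphate phosphatase VTC4, a family that also acts on inositol phosphates. CMH255C had 125, 138 and 137 CPM at HC 0 h, 196, 271 and 267 CPM at LC 3 h, 186, 198 and 203 CPM at LC 24 h and 137, 149 and 165 CPM in recovery, with both low-CO2 groups above both high-CO2 groups. Its level rose at LC 3 h (log2 0.88 ± 0.12, adjusted p = 1.7e-04) and LC 24 h (log2 0.55 ± 0.12, adjusted p = 0.00188). The other, CMQ201C, fell at LC 24 h (log2 -0.68 ± 0.14, adjusted p = 0.00178). The L-galactose dehydrogenase match CMK211C had 36.3, 30.0 and 44.9 CPM at HC 0 h, 24.0, 42.0 and 42.2 CPM at LC 3 h, 52.9, 55.2 and 54.2 CPM at LC 24 h and 41.0, 50.8 and 48.8 CPM in recovery. Its rise at LC 24 h against LC 3 h (log2 0.58 ± 0.20, adjusted p = 0.0301) was lost without LC 24 h replicates 2 (0.0705) or 3 (0.0638) or LC 3 h replicate 1 (0.0723). The last enzyme of the pathway, the galactonolactone dehydrogenase match CMD093C, rose at LC 3 h against HC 0 h (log2 0.46 ± 0.13, adjusted p = 0.0158, and 0.0558 without HC 0 h replicate 3). At LC 24 h it was lower than at HC 0 h (log2 -0.42 ± 0.13, adjusted p = 0.0157), a call lost when HC 0 h replicate 1 (0.0501) or LC 24 h replicate 2 (0.0545) was left out. It was also lower at LC 24 h than at LC 3 h (log2 -0.89 ± 0.13, adjusted p = 3.3e-04).

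**Figure D4:**
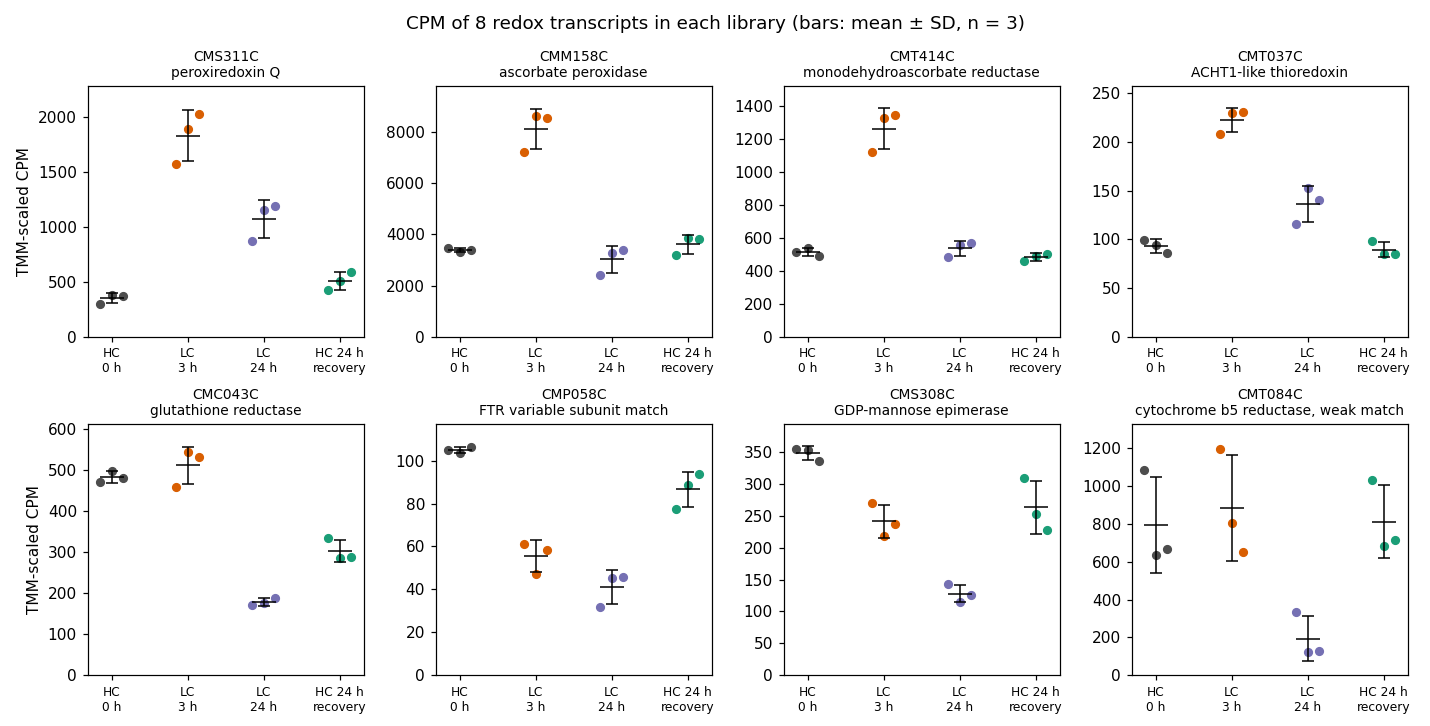
TMM-scaled CPM (y axes, linear from 0) of 8 members in each library of the 4 groups in time order (x axis), as points, with the mean and SD of 3 libraries as bars. The upper row holds members highest at LC 3 h, with CMM158C at 7193 to 8598 CPM there, and the lower row members lowest at LC 24 h, with CMC043C at 170 to 189 CPM there.

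Of the 9 thioredoxins and thioredoxin reductases, 4 rose and 1 fell at LC 3 h, which is 44.4% and 11.1% of them beside 22.1 and 19.3 percent of all tested genes. At LC 24 h 3 rose and 5 fell, or 33.3% and 55.6% beside 32.7 and 30.3 percent. CMT037C matches ACHT1, an atypical thioredoxin of Arabidopsis plastids. It had 99.4, 93.9 and 85.5 CPM at HC 0 h, 208, 229 and 230 CPM at LC 3 h, 116, 153 and 140 CPM at LC 24 h and 98.4, 85.2 and 84.5 CPM in recovery. LC 3 h and LC 24 h were each separate from the rest, and recovery overlapped HC 0 h. It rose 2.40-fold at LC 3 h (log2 1.26 ± 0.11, adjusted p = 6.4e-06), by log2 0.55 ± 0.11 at LC 24 h (adjusted p = 9.4e-04), and fell in recovery against LC 24 h (log2 -0.61 ± 0.10, adjusted p = 8.1e-04). CMQ093C, an m-type thioredoxin and the most abundant of the class, had 274, 253 and 252 CPM at HC 0 h, 471, 432 and 453 CPM at LC 3 h, 243, 314 and 313 CPM at LC 24 h and 305, 334 and 311 CPM in recovery. LC 3 h was above all others, with a rise of log2 0.80 ± 0.10 against HC 0 h (adjusted p = 1.0e-04).

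Thioredoxins of the f and h types had their highest values in different groups. CMN279C matches thioredoxin f, which activates Calvin-Benson cycle enzymes in land plants. It had 209, 265 and 280 CPM at HC 0 h, 225, 230 and 253 CPM at LC 3 h, 336, 425 and 412 CPM at LC 24 h and 303, 448 and 449 CPM in recovery. LC 24 h and recovery were above both earlier groups, which overlapped. It rose at LC 24 h against HC 0 h (log2 0.64 ± 0.16, adjusted p = 0.00553) and against LC 3 h (log2 0.73 ± 0.16, adjusted p = 0.00363). The h-type match CMJ096C had 197, 155 and 154 CPM at HC 0 h, 278, 255 and 275 CPM at LC 3 h, 93.5, 87.3 and 89.8 CPM at LC 24 h and 200, 128 and 125 CPM in recovery. It was highest at LC 3 h and lowest at LC 24 h, each without overlap. Against HC 0 h it rose at LC 3 h (log2 0.67 ± 0.16, adjusted p = 0.00691) and fell at LC 24 h (log2 -0.90 ± 0.16, adjusted p = 6.8e-04). The other h-type match, CMM285C, rose at both times, by log2 0.39 ± 0.08 (adjusted p = 0.00263) and 0.43 ± 0.08 (adjusted p = 8.5e-04).

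Both enzymes that match thioredoxin reductases fell at LC 24 h against HC 0 h, and CMP058C alone of them was also called lower at LC 3 h. CMP058C matches the variable subunit of ferredoxin-thioredoxin reductase with an E-value of 2e-04. It had 105, 103 and 106 CPM at HC 0 h, 61.2, 46.9 and 58.4 CPM at LC 3 h, 31.9, 45.1 and 45.8 CPM at LC 24 h and 77.6, 88.6 and 93.6 CPM in recovery. HC 0 h was highest, recovery next and both low-CO2 groups lowest. It fell at LC 3 h (log2 -0.92 ± 0.14, adjusted p = 4.3e-04) and LC 24 h (log2 -1.36 ± 0.14, adjusted p = 1.4e-05), and rose in recovery against LC 24 h (log2 1.08 ± 0.14, adjusted p = 1.3e-04). The catalytic subunit of that reductase, CMV226C, is encoded in the plastid genome and is no member. It was near the floor, at 0.72 ± 0.33 CPM at HC 0 h and 2.29 ± 0.56 CPM at LC 3 h (SD, n = 3 each). CMV226C was called higher at LC 3 h (log2 1.66 ± 0.45 SE, adjusted p = 0.0129) and not called at LC 24 h (log2 0.07 ± 0.47). The NADPH-dependent reductase match CMI298C fell at LC 24 h (log2 -0.81 ± 0.15, adjusted p = 7.2e-04) and rose in recovery against LC 24 h (log2 0.67 ± 0.15, adjusted p = 0.00372). The y-type thioredoxin match CMS271C and the thioredoxin-family CMQ062C also fell at LC 24 h, by log2 -0.58 ± 0.14 (adjusted p = 0.00362) and -0.64 ± 0.17 (adjusted p = 0.00662).

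Protein disulfide isomerases carry thioredoxin folds and form disulfides in secreted proteins. Of the 4 such members, CMC180C had 319, 337 and 334 CPM at HC 0 h, 239, 215 and 220 CPM at LC 3 h, 156, 150 and 149 CPM at LC 24 h and 306, 238 and 230 CPM in recovery. The first 3 groups descended without overlap. It fell at LC 3 h (log2 -0.56 ± 0.10, adjusted p = 0.00112) and LC 24 h (log2 -1.12 ± 0.10, adjusted p = 4.7e-06). CMK278C also fell at LC 3 h (log2 -0.33 ± 0.09, adjusted p = 0.0126).

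Among the 7 glutaredoxins, 2 rose and 1 fell at LC 3 h, and 3 rose and 1 fell at LC 24 h. These calls took 42.9% and 57.1% of the class, near the 41.4 and 63 percent of all tested genes called. CMQ268C, annotated as a protein disulfide oxidoreductase, had 32.7, 38.4 and 39.0 CPM at HC 0 h, 48.3, 69.2 and 67.1 CPM at LC 3 h, 65.3, 65.4 and 62.6 CPM at LC 24 h and 44.7, 51.6 and 46.3 CPM in recovery. All low-CO2 libraries exceeded HC 0 h, with LC 3 h replicate 1 below 1 recovery library. It rose at LC 3 h (log2 0.74 ± 0.13, adjusted p = 9.1e-04) and LC 24 h (log2 0.81 ± 0.13, adjusted p = 2.6e-04) and fell in recovery against LC 24 h (log2 -0.44 ± 0.12, adjusted p = 0.0135). CMI284C, with a weak glutaredoxin match (E-value 1e-04), had 152, 140 and 130 CPM at HC 0 h, 221, 248 and 230 CPM at LC 3 h, 232, 214 and 200 CPM at LC 24 h and 180, 178 and 178 CPM in recovery. Low CO2 stood above recovery, and recovery above HC 0 h. Its rise was log2 0.73 ± 0.08 at LC 3 h (adjusted p = 3.1e-05) and 0.61 ± 0.08 at LC 24 h (adjusted p = 4.9e-05).

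The remaining glutaredoxins split. CMF017C had 28.3, 29.0 and 31.7 CPM at HC 0 h, 34.4, 31.9 and 34.8 CPM at LC 3 h, 36.5, 45.7 and 42.1 CPM at LC 24 h and 35.9, 46.7 and 43.5 CPM in recovery, so every later library exceeded every HC 0 h library. It rose at LC 24 h (log2 0.48 ± 0.11, adjusted p = 0.00375). CMT498C, glutaredoxin-related, fell at LC 24 h (log2 -0.96 ± 0.13, adjusted p = 7.3e-05). Its fall at LC 3 h (log2 -0.35 ± 0.13, adjusted p = 0.0435) was lost with only the groups compared in the fit (0.0603). Leaving out replicates 1 or 2 of HC 0 h (0.121 and 0.133), 2 or 3 of LC 3 h (0.128 and 0.145), 2 or 3 of LC 24 h (0.0535 and 0.0589) or 2 of recovery (0.0553) also ended that call. The most abundant, CMM250C, matches a glutaredoxin of Arabidopsis mitochondria and had 628, 611 and 565 CPM at HC 0 h, 757, 576 and 589 CPM at LC 3 h, 663, 752 and 751 CPM at LC 24 h and 688, 692 and 670 CPM in recovery. Every LC 24 h library was above every HC 0 h library. That difference, log2 0.26 ± 0.11, had an adjusted p of 0.0591, and 0.0368 without LC 24 h replicate 1 or 0.0154 without LC 3 h replicate 1.

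The reductases and heme proteins of the set fell or did not pass at LC 24 h. CMT084C, whose match to cytochrome b5 reductase is weak (E-value 0.003), had 1088, 634 and 666 CPM at HC 0 h, 1196, 803 and 650 CPM at LC 3 h, 332, 120 and 126 CPM at LC 24 h and 1034, 686 and 713 CPM in recovery. LC 24 h was below every other library, and replicate 1 was the highest in each group. It fell 4.13-fold at LC 24 h (log2 -2.04 ± 0.41, adjusted p = 0.00147) and rose in recovery against LC 24 h by log2 2.07 ± 0.42 (adjusted p = 0.00215). Without LC 24 h replicate 1 these values were -2.69 and 2.72. CMS286C, a closer match to the same reductase (E-value 2e-69), had 164, 163 and 150 CPM at HC 0 h, 153, 143 and 140 CPM at LC 3 h, 68.8, 71.5 and 72.0 CPM at LC 24 h and 135, 110 and 105 CPM in recovery. Only LC 3 h and HC 0 h overlapped, and the fall at LC 24 h was log2 -1.17 ± 0.09 (adjusted p = 2.0e-06).

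CMR319C, a weak hemoglobin match (E-value 4e-05), had 482, 531 and 481 CPM at HC 0 h, 563, 359 and 335 CPM at LC 3 h, 450, 247 and 204 CPM at LC 24 h and 564, 554 and 517 CPM in recovery. In both low-CO2 groups replicate 1 was far above replicates 2 and 3. Its fall at LC 24 h (log2 -0.73 ± 0.27, adjusted p = 0.0341) was lost without any HC 0 h replicate (0.062, 0.0866 and 0.0597 for replicates 1, 2 and 3) and with either replicate 2 (0.115) or replicate 3 (0.119) of LC 24 h left out. The call was also lost with only the groups compared in the fit (0.0902), and the value was -1.15 without LC 24 h replicate 1. Further heme-binding matches lie in the ascorbate and glutathione class. The cytochrome b5 match CMP154C fell at LC 24 h (log2 -0.32 ± 0.08, adjusted p = 0.00575). CMS246C, which matches the membrane-associated progesterone binding protein MAPR2, rose at LC 3 h (log2 0.49 ± 0.14, adjusted p = 0.0178) and was lower at LC 24 h than at LC 3 h (log2 -0.78 ± 0.14, adjusted p = 0.00109). The LC 3 h call was lost when HC 0 h replicate 3 (0.0673) was left out, and with either replicate 2 (0.0516) or replicate 3 (0.0562) of LC 3 h left out.

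After the return to 5% CO2, 22 members were higher and 10 lower in recovery than at LC 24 h, 59.3% of the members beside 49.6 percent of all tested genes called. Higher calls took 40.7% of the members against 24.7 percent of all tested genes, and lower calls 18.5% against 24.9 percent. The median log2 change was 0.18 over the members and -0.003 over all tested genes. Lower calls numbered 6 without recovery replicate 1, and also with either replicate 2 or 3 of LC 24 h left out. With the replicate block, CMN023C (adjusted p = 0.00958), CMT629C (0.0213) and CMK015C (0.0253) were also higher, and CMQ101C (0.0313) and CMF043C (0.0264) also lower.

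The change on entering low CO2 and the change on leaving it share no library. Both come from a single fit, and whether their libraries share cultures is not stated, so they are not taken as independent. Of the 16 members higher at LC 3 h than at HC 0 h, 8 were lower in recovery than at LC 24 h, which is 50% of the first list and 80% of the second, against 64% and 56.8% over all tested genes. Of the 8 members lower at LC 3 h, 7 were higher in recovery, which is 87.5% and 31.8%, against 63.3% and 49.5% over all tested genes. CMJ096C was higher in both comparisons.

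Against HC 0 h, recovery had 3 members higher and 5 lower, 14.8% of the members beside 14.1 percent of all tested genes called. None of these members changed by 2-fold, and 27 of 4865 tested genes were called at that size. Higher calls took 5.56% of the members against 7.24 percent of all tested genes, and lower calls 9.26% against 6.82 percent. The glutathione reductase CMC043C was the only member whose call held under every alternative. The thioredoxin f match CMN279C was higher (log2 0.67 ± 0.16, adjusted p = 0.022), a call lost without HC 0 h replicates 1 (0.0813) or 2 (0.0539) or recovery replicates 2 (0.0978) or 3 (0.0798). The reductase CMS286C was lower (log2 -0.45 ± 0.09, adjusted p = 0.0109, and 0.0589 without recovery replicate 2). The other calls were CMF017C (log2 0.50) and CMI284C (0.34) higher, and CMS308C (-0.41), CMC180C (-0.36) and CMH250C (-0.28), a cytochrome b5 reductase match, lower. Each of these 5 was lost without HC 0 h replicate 2, recovery replicate 2 or recovery replicate 3, and some without other libraries, with adjusted p from 0.0506 to 0.164. Leaving out the first HC 0 h library gave 1 higher call, and leaving out the second gave 0, as did leaving out recovery replicates 2 or 3. There were 5 higher calls without recovery replicate 1 or the first LC 24 h library, and 8 without the first LC 3 h library. Lower calls numbered 3 with the first HC 0 h library left out and 2 with either of the others left out. They numbered 10 without recovery replicate 1, 1 without recovery replicate 2, 2 without recovery replicate 3, and 3 without LC 24 h replicates 2 or 3.

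In the authors' deposited table, 11, 17 and 1 of the members had a q-value under 0.05 against HC 0 h at LC 3 h, LC 24 h and recovery. Each of those was also called here, where 24, 38 and 8 members were called. The other calls made here did not pass that q-value. Among them were CMN023C at LC 3 h and CMN109C, CMN279C, CMT037C and CMO099C at LC 24 h. The authors' count over all genes is not given here.

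Genes around the set were taken from lists of description words. Of 26 genes outside the category whose descriptions name glutathione, thioredoxin, peroxide or related terms, 12 rose and 3 fell at LC 3 h, which is 46.2% and 11.5% of the list beside 22.1 and 19.3 percent of all tested genes. At LC 24 h 12 rose and 7 fell, or 46.2% and 26.9% beside 32.7 and 30.3 percent. The list also caught a chorismate mutase and calcium ATPases. CMP184C, a glyoxalase I family match, whose enzymes detoxify methylglyoxal with glutathione, averaged 611 ± 163 CPM at LC 3 h and 33.7 ± 2.70 CPM at HC 0 h (SD, n = 3 each; log2 4.18 ± 0.25 SE, adjusted p = 6.6e-07). Formaldehyde is cleared with glutathione by S-nitrosoglutathione reductase and S-formylglutathione hydrolase in Arabidopsis. Their matches rose at LC 3 h by log2 1.38 ± 0.20 for CMS125C (adjusted p = 2.9e-04) and 2.03 ± 0.19 for CMQ397C (adjusted p = 1.2e-05). The microsomal glutathione S-transferase CMS309C fell at LC 24 h (log2 -1.98 ± 0.32, adjusted p = 3.4e-04).

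Sulfur assimilation, which supplies cysteine for glutathione, had 3 of 10 genes higher and 3 lower at LC 3 h, and 4 higher and 4 lower at LC 24 h. Calls in either direction thus took 60% and 80% of this short list, beside 41.4 and 63 percent of all tested genes. The cysteine synthase match CMS037C rose at LC 24 h (log2 0.99 ± 0.19, adjusted p = 0.001) while the APS reductase match CMT162C fell (log2 -1.77 ± 0.21, adjusted p = 2.9e-05). Among 21 genes of NADPH supply and electron donors, 4 rose and 6 fell at LC 3 h, and 6 rose and 7 fell at LC 24 h. The shares called, 47.6% and 61.9%, were near those same all-gene shares. This list holds the plastid-encoded CMV226C, left out of the members, among the genes that rose at LC 3 h. CMR014C, a glucose-6-phosphate dehydrogenase match, averaged 92.8 ± 35.3 CPM at LC 3 h and 234 ± 16.7 CPM at HC 0 h (log2 -1.34 ± 0.26, adjusted p = 0.002). Of 16 genes listed by words for thioredoxin targets of land plants, 5 rose and 3 fell at LC 3 h, and 3 rose and 7 fell at LC 24 h, with 50% and 62.5% called beside 41.4 and 63 percent. That list caught at least 4 of other function, namely CMI111C, CMS101C, CML029C and CMT034C. Whether the others are plastid forms regulated by thioredoxin was not tested. Within it CMD041C, a fructose-1,6-bisphosphatase match, rose at LC 3 h (log2 2.08 ± 0.23, adjusted p = 4.6e-05), and CMM167C, a glyceraldehyde-3-phosphate dehydrogenase match, fell (log2 -1.67 ± 0.34, adjusted p = 0.0024).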

How the data were processed

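Total RNA of 3 biological replicates at each of 4 sampling times was prepared with an unstranded library kit and read as 100-base paired ends, per the labels' protocols. The authors deposited estimated counts and TPM for 4970 genes, and CASAVA 1.8, Bowtie2, RSEM and edgeR are named in the submitters' processing notes. Which step each tool ran, and on which genome build or gene models, is not given in the sources used here. The authors' deposited log2 fold changes were not used, and their q-values were only set beside the calls.

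Counts were rounded to whole numbers (94.0% already were, within 1e-06) and tested with edgeR 4.0.16 under R 4.3.3. A single model with 4 groups was fitted to the 12 libraries, after TMM scaling and edgeR's default low-count filter (105 genes removed), and tested with the robust quasi-likelihood F test. Calls are at an adjusted p under 0.05 within each of 5 comparisons. Each SE was obtained as the size of the log2 change over the square root of its F value. CPM uses TMM-scaled library sizes and serves comparison within a gene, and TPM serves levels between genes. The columns of per-sample values all matched a sample. The 54 members were all found in the RefSeq table of assembly ASM9120v1, used for names and neighbours only.

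Same-numbered libraries were taken to deviate together where every pair's correlation of deviations from the group means was over 0.1. This held at LC 3 h with HC 0 h (r = 0.456, 0.243 and 0.389) and at recovery with LC 24 h (0.535, 0.212 and 0.482), so these comparisons are also given with a replicate block where it changes a call. The numbers come from the sample titles. Genes with values per library were those with the 4 largest called changes in each direction of a comparison and the most abundant of each class, and also CMI112C and CMH255C, chosen after their values were seen. Examples from the lists around the set were picked after their values were seen. The members and lists were chosen with earlier results of these data known. Alternatives were RLE and upper-quartile scaling, no and a stricter low-count filter (10 CPM in 3 libraries), DESeq2 1.42.0, only the groups compared, the replicate block and leaving out each library. The procedure was also run on simulated counts with 200 changed genes and a single dispersion for all genes. That simulation held no deviation shared by same-numbered libraries, so it could not test how such deviations affect the calls.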

Additional observations from a re-analysis of the deposited data

How the results depend on the processing

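Of the members' calls, 20 of 24 at LC 3 h, 29 of 38 at LC 24 h, 1 of 8 in recovery against HC 0 h, 22 of 32 in recovery against LC 24 h and 22 of 33 at LC 24 h against LC 3 h held under every alternative, and no member changed direction in a called comparison. The fragile comparison was recovery against HC 0 h. There 684 genes were called, against 1077 with DESeq2, 1251 with the replicate block and 189 to 1198 with 1 library left out. Members higher there numbered 3, against 7 with DESeq2, 7 with the replicate block, 5 with the stricter filter and 0 to 8 with 1 library left out, and members lower 5, against 3 with only the 2 groups compared and 1 to 10 with 1 library left out. Members lower at LC 3 h numbered 8, against 13 with the replicate block, 14 under upper-quartile scaling and 7 to 13 with 1 library left out. Members higher at LC 24 h than LC 3 h numbered 8, against 5 with the stricter filter and 3 to 8 with 1 library left out. Members lower in recovery than LC 24 h numbered 10, against 6 to 12 with 1 library left out. The cause of these differences was not tested. In the other 3 comparisons, not every same-numbered pair of libraries had a correlation over 0.1, and the block gave 3331 genes called at LC 24 h against HC 0 h (3065 without it) and 2931 at LC 24 h against LC 3 h (2587 without it). With 3 libraries a group, small changes near the threshold could not be settled.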
